A study of Ascaris suum with 28 samples.

Results

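Ascaris suum is a parasitic roundworm of pigs whose eggs leave the mother as single cells and then divide slowly. The RNAs described here are those that the deposited table places in the free fraction of polysome gradients before cleavage and in the heavy fraction later in embryogenesis. A gene was a member when its free-fraction level was RPKM 10 or more on days 0 and 1, its free value exceeded its heavy value at least 2-fold on both of those days, and its heavy value exceeded its free value at least 2-fold on days 5 and 7, all ratios being taken on RPKM + 1. RPKM is a read count divided by gene length and library size. Of 15399 genes in the table, 75 met the rule.

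An mRNA that carries many ribosomes sediments to the heavy end of a sucrose gradient, whereas an mRNA in a ribosome-free particle stays near the top. Eggs of many animals store maternal mRNA in such particles and load it onto ribosomes at a later stage, so the position of an RNA in the gradient is commonly read as a measure of its translation. Association with large complexes other than polysomes can also place an RNA in a heavy fraction.

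The 5 gradients came from zygotes of uterus region 4 (day 0), 1-cell embryos (day 1), 4-8-cell embryos (day 3), 32-64-cell embryos (day 5) and embryos of about 256 cells (day 7), each with a free, a middle and a heavy library. Poly(A) RNA was measured in 13 further libraries, from oocytes with wall, zygotes of uterus regions 1 to 4, embryos of 24, 46, 64, 96 and 116 h and day 7, and L1 and L2 larvae. All material was from a wild North American population and received no treatment. Zygotes were taken from female uteri with alkali, region 4 counted as 0 h, and embryos developed at 30 °C in acidic buffer. Embryo samples pooled eggs from more than 1000 females. The oocyte and 64 h columns were taken as poly(A) libraries by inference from their names. Each library stood alone, so a level or a ratio has no replicate error, and sequencing depth is unknown. Column totals ran from 311996 to 453746 RPKM for poly(A) RNA and from 236086 to 918364 RPKM for the fractions, and whether a scaling beyond RPKM was applied between fractions is not stated. The files do not pair the identifiers with gene names, so no function is given for any member and few identifiers are printed.

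On day 0 the 75 members had a median RPKM of 80.8 in the free fraction and 21.4 in the heavy fraction, and on day 1 of 43.4 and 12.6. On day 5 the medians were 14.7 (free) and 54.8 (heavy), and on day 7 they were 16.8 and 39.4. The members were chosen by these free and heavy values, which are therefore given as a description with no test. The median log2 ratio of heavy to free was -1.69 for the day 0 gradient, -1.56 for day 1, 1.52 for day 5 and 1.27 for day 7. From days 0 and 1 to days 5 and 7 the free level was lower in 68 of 75 members. The median log2 difference was -1.80. The heavy level was higher in 64 of 75, with a median of 1.41 over all members. Of the 3687 genes with free RPKM 10 or more on days 0 and 1, 2683 (72.8%) were lower in free. In heavy 2286 were higher, and the medians were -0.99 and 0.54. Of the 1488 genes that met the early part of the rule only, 1155 (77.6%) were lower in free, median -1.60. In heavy 802 (53.9%) of these were higher, median 0.23. A lower free level was thus common outside the members as well. The embryos went from 1 cell to about 256 cells over this time, and in whole embryos fewer cells carrying an RNA and less RNA per cell cannot be told apart.

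**Figure D1:**
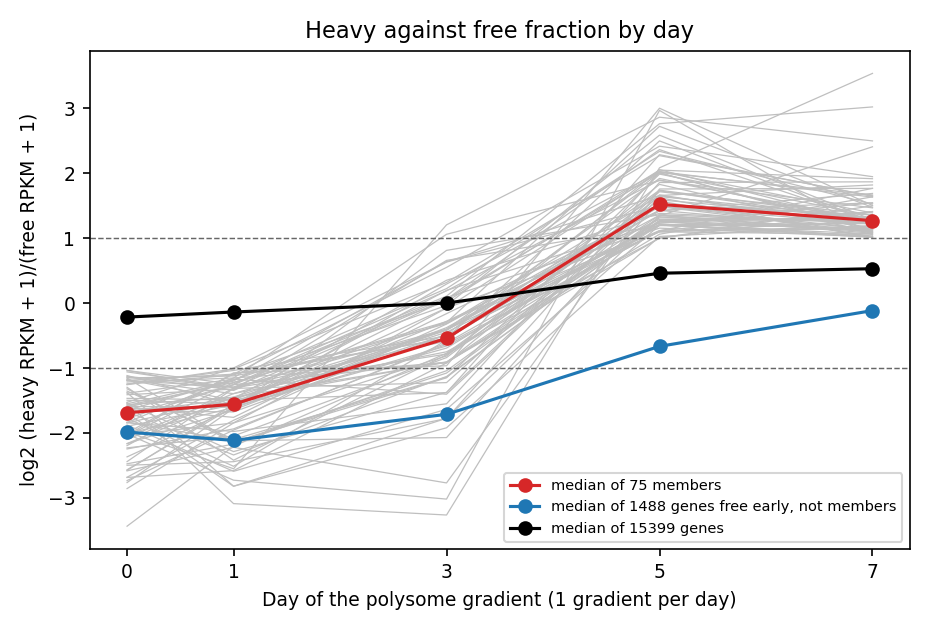
Log2 ratio of heavy to free fraction (RPKM + 1) on the 5 gradient days, with 1 grey line per member and dots for medians; dashed lines mark the 2-fold limits of the rule. The members' median was -1.69 on day 0 and 1.27 on day 7, and that of all 15399 genes -0.22 and 0.53.

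The early and the late condition of the rule were each common, and their combination was not. Among 3687 genes with free RPKM 10 or more on days 0 and 1, 1563 (42.4%) were 2-fold higher in the free fraction on both days, and 767 (20.8%) were 2-fold higher in the heavy fraction on days 5 and 7. Of the 1563, 75 (4.8%) were also 2-fold heavy on days 5 and 7. The other 1488 met the early condition only and serve below as the comparison genes. Their start was not matched to that of the members but lay further towards the free end. Their median log2 ratio was -1.99 on day 0 and -2.11 on day 1, against -1.69 and -1.56 for the members. The late condition needs some RNA in the heavy fraction, so an RNA lost from the embryo by day 5 could not qualify. A heavy RPKM of 10 or more was reached by 66 of 75 members on day 5 and by 70 on day 7, counts partly set by the rule. Of all 15399 genes, 6589 and 6334 reached it.

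Members lay close to the limits of the rule. ASU_05916 lay on the limit with exactly 2-fold more in the free fraction on day 1, and ASU_09331 and ASU_14179 lay on it with exactly 2-fold more in the heavy fraction on day 5. The nearest genes outside had -0.995 on day 1 and 0.994 on day 5. With a limit of 3-fold in place of 2-fold 5 members were left, and with 1.5-fold 309 genes qualified.

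The median over all genes moved in the same direction as that of the members. Over 15399 genes the median log2 ratio of heavy to free went from -0.22 (day 0) through -0.14 (day 1) and 0.00 (day 3) to 0.46 (day 5) and 0.53 (day 7). Relative to it, the members' median went from -1.47 and -1.42 before cleavage through -0.54 in the day 3 gradient to 1.06 and 0.74 in the last pair of gradients. Scaling the 15 columns in another way removed most of this common movement and brought the members' late ratios nearer to 0. With median-ratio scaling the members' median was -0.22 on day 5 and 0.14 on day 7, and with quantile normalization 0.37 and 0.61. The ratio was above 0 on both days in 27 of 75 members with median-ratio scaling and in 55 of 75 with quantile normalization. The rule then selected 4 and 8 genes, 1 of them a member in each case. That member was ASU_08406 both times. The shift, the mean log2 ratio of days 5 and 7 minus that of days 0 and 1, had a median of 3.20 on the deposited, 1.72 on the quantile-normalized and 1.84 on the median-ratio scale. Its sign was largely fixed by the rule, which sets it at 2 or more on the deposited scale, and it was above 0 for 75 of 75 members on each scale. Over the 3687 genes the medians were 1.35, 0.06 and 0.07, with 89.5%, 52.3% and 52.9% above 0. The heavy position on days 5 and 7 is that of the deposited scale.

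**Figure D2:**
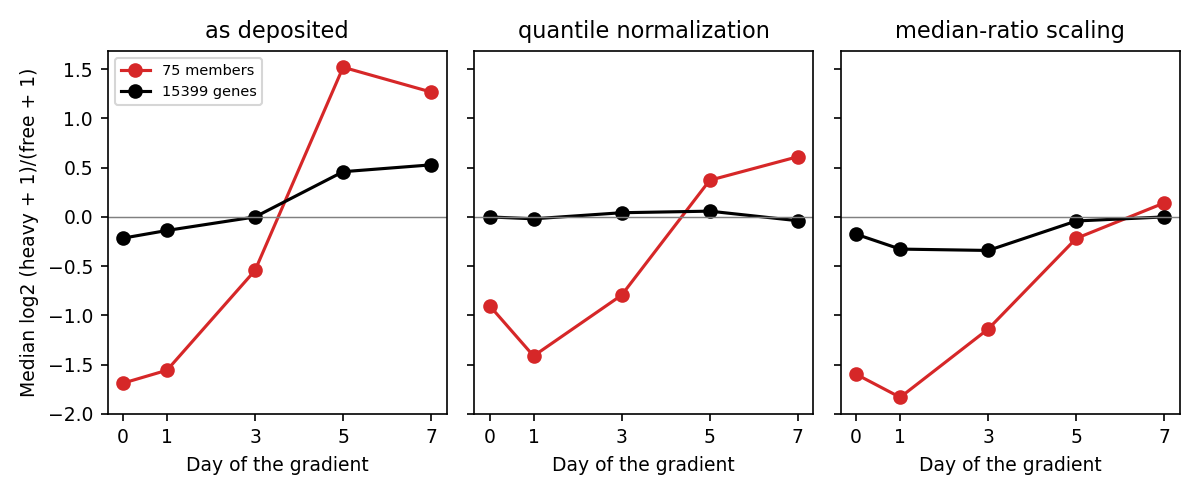
Median log2 ratio of heavy to free fraction by gradient day for the 75 members and all 15399 genes, on the deposited scale and after each of 2 other scalings of the 15 columns. On day 5 the members' median was 1.52, 0.37 and -0.22 on the 3 scales.

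ASU_15325 had the largest shift, 5.12 log2 units. Over days 0, 1, 3, 5 and 7 its free RPKM was 49.3, 19.4, 8.6, 0.7 and 0, and its heavy RPKM was 16.4, 1.4, 0, 6.2 and 10.6. Its large ratio thus rests on late values of RPKM 10.6 or less, set against a free value at or near 0. ASU_08406 had the next largest shift, 4.95. Its free RPKM was 33.0, 24.2, 11.2, 26.6 and 25.1 over the same days, and its heavy RPKM 7.6, 3.3, 27.1, 199.6 and 146.3. Here the free level stayed between 11.2 and 33.0 while the heavy level on day 5 was above that of every earlier day.

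Day 3, in 4-8-cell embryos, is the day the rule did not use. The members' median RPKM was 24.3 in the free, 42.4 in the middle and 16.9 in the heavy fraction. The median log2 ratio of heavy to free was -0.54, between -3.26 and 1.20, and it was below 0 in 57 of 75 members. The 3687 genes with free RPKM 10 had nearly the same median, -0.57, with 36.7% above 0 against 24% of the members. In 71 of 75 members the day 3 ratio lay above that of day 1 and below that of day 5, as it did in 56.2% of the 3687 genes with free RPKM 10 and in 56.2% of the 1488. Part of this order follows from the limits set on days 1 and 5. On the scale from the mean of days 0 and 1 to the mean of days 5 and 7, the members had covered a median fraction of 0.381 of the distance by day 3, and 60 of 75 less than 0.5 of it. The rule chose the values at both ends of this scale. The fraction was computed on the deposited scale only and not for other genes, so it has no background.

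Of the 62 members with RPKM 10 or more in the free or heavy fraction of day 3, 14 were 2-fold higher in the free fraction and 2 in the heavy fraction, and 46 were within 2-fold. Over all 5627 such genes the shares were 27.4% free and 39.6% heavy. Over the 3247 of them with free RPKM 10 on days 0 and 1 they were 38.3% and 17.9%. The members' 22.6% free was near the share of all genes and below that of the 3247. Their 3.23% heavy was below both. Among the 1288 comparison genes with RPKM 10 or more in either fraction of day 3, 976 (75.8%) were 2-fold free and 0 heavy. The comparison genes had also lain further towards the free end on days 0 and 1. Many of those genes had little RNA later. When both sets were restricted to genes with free or heavy RPKM 10 or more on days 5 and 7, 12 of 58 members (20.7%) and 571 of 853 other genes (66.9%) were 2-fold free on day 3. These counts come from 1 gradient and were not tested. With median-ratio scaling 42 of 72 members (58.3%) were 2-fold free and 0 heavy, against 38.9% free and 26.5% heavy over all genes. Over the genes with free RPKM 10 on days 0 and 1 the shares were then 53.1% and 8.0%. With quantile normalization 22 of 73 (30.1%) were free and 0 heavy, against 30% and 30.5%.

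Individual members differed in timing. ASU_08406 and ASU_12636 had the highest day 3 ratios, 1.20 and 1.06. ASU_12636 had free RPKM of 46.8, 30.6, 18.1, 22.9 and 17.1 over days 0, 1, 3, 5 and 7, and heavy RPKM of 19.6, 13.2, 38.8, 87.3 and 49. Its heavy level exceeded its free level from day 3 on. ASU_15325 (-3.26) and ASU_12938 (-3.02) had the lowest day 3 ratios. ASU_12938 had free RPKM of 26.1, 26.8, 15.2, 3.3 and 73.2 and heavy RPKM of 5.7, 3.2, 1.0, 32.6 and 152.5. It was further towards the free end on day 3 than on day 1, and its level on day 7 was high in both fractions. Across the 75 members, which share the same libraries, the day 3 ratio had a Spearman rho of 0.48 with the mean ratio of days 0 and 1 and of 0.14 with that of days 5 and 7. The rule limited the range of both means, so these values are a description and cannot be set against each other. No rho was computed over other genes.

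The middle fraction, also outside the rule, held the largest share of these RNAs on most days. As a share of the 3 fractions' summed RPKM, the members' median middle share was 45.8%, 53.1%, 49.3%, 41.2% and 49.2% in the gradients of days 0, 1, 3, 5 and 7. The free share was 42.3%, 36.4%, 29.1%, 12.9% and 13.3% in the same order. The heavy share was 12.1%, 10.9%, 19.2%, 44.3% and 36.1%. The rule set the order of free and heavy on days 0, 1, 5 and 7, and the median middle share stayed between 41.2% and 53.1%. From day 0 to day 7 the median free share went from 36.4% to 21.1% over the genes with free RPKM 10. Over all genes with RNA in any fraction it went from 27.3% to 12.8%. The heavy share went from 15.3% to 27.3% and from 18.0% to 26.5% in these 2 sets. Each fraction is its own RPKM column, so these shares are not amounts of RNA. The middle fraction was the highest of the 3 in 45 of 75 members on day 0 (82% of all genes with RPKM 10 in any fraction) and in 50 of 75 on day 1 (69.3%). For day 3 the count was 60 of 70 (70%), for day 5 31 of 70 (66.5%) and for day 7 45 of 72 (82.8%). Without an RPKM minimum on the day, the middle was highest in 60%, 66.7%, 82.7%, 44% and 62.7% of members over the 5 days. Over the genes with free RPKM 10 on days 0 and 1 these shares were 68.0%, 57.0%, 58.3%, 51.2% and 69.0%. On day 3 the free fraction was highest in 6 of 70 (17% of all genes) and the heavy fraction in 4 (12.9%). In the remaining members of day 5, 39 of 70, the heavy fraction was highest (22.3% of all genes), a count partly set by the rule, which puts heavy above free on that day.

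**Figure D3:**
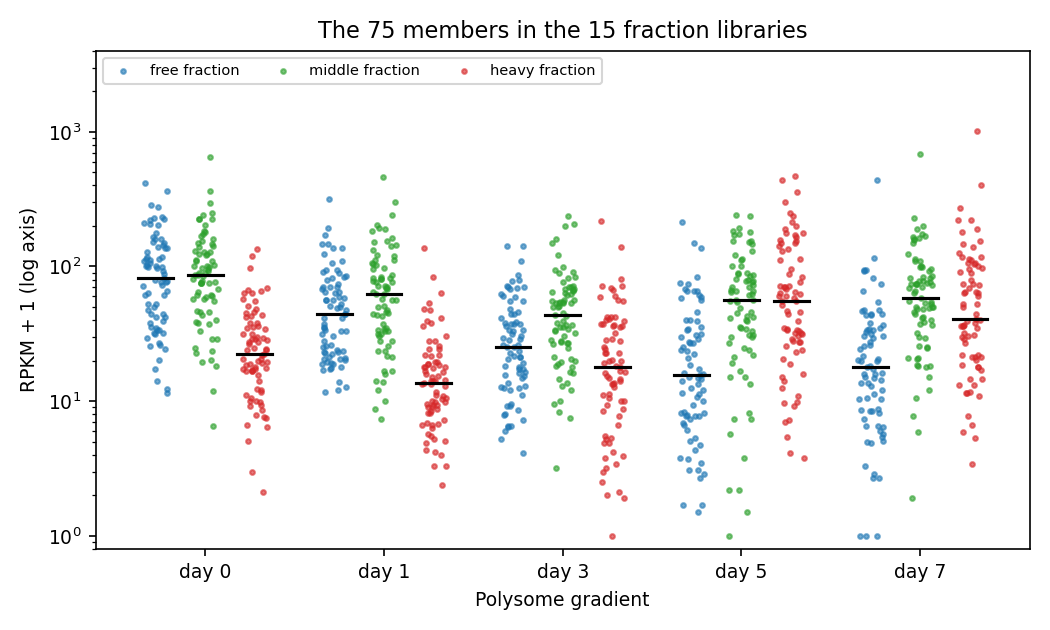
RPKM + 1 on a log axis for the 75 members in the free, middle and heavy fractions of the 5 gradients, with 1 point per gene and a bar at the median. The free median went from RPKM 80.8 on day 0 to 16.8 on day 7 and the heavy median from 21.4 to 39.4, while the middle medians lay between 42.4 and 84.7.

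Poly(A) RNA was followed to ask how much of each RNA was present while its gradient position changed. Nearly all members had RNA in the oocyte library. There 71 of 75 were at RPKM 10 or more, against 79.5% of the 3687 genes with free RPKM 10, and 0 were under RPKM 1, against 2.79%. The highest value of the course lay in the oocyte library in 27 members (36%), against 14.7% of such genes, and in zygote region 4 in 11 members, which is 14.7% against 16.6%. Among the comparison genes that reached RPKM 10 in a poly(A) library, it lay in the oocyte library in 21.9% and in region 4 in 17.3%. The members' median RPKM was 62.2 in the oocyte library, 42.3, 37.7, 39.5 and 52.7 in zygote regions 1 to 4, and 30.3 at 24 h. It was 36.6 at 46 h, 27.6 at 64 h, 23.8 at 96 h, 27.7 at 116 h, 33.4 on day 7, 28.0 in L1 and 13.8 in L2 larvae. From 24 h to L1 the median therefore stayed between 23.8 and 36.6, and 38 of 75 members (50.7%) were at RPKM 10 or more in all 13 libraries, against 38.3% of the 3687 genes.

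The comparison genes had a lower late poly(A) level. The 1488 others had a median RPKM of 33.1 as oocytes, 39.8 as region 4 zygotes and 27.1 at 24 h, and of 8.2 and 9.4 at 116 h and on day 7. This contrast was partly set by the rule, which needs RNA on days 5 and 7. Between the 65 members and 876 other genes with free or heavy RPKM 10 or more on both days, the medians at 116 h were 31.1 and 28.7 and those of day 7 36.1 and 25.35, from 62.2 and 51.5 in the oocyte library. Among genes still present late, the poly(A) medians of the members and the others were thus within 1.5-fold of each other at these 3 stages.

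**Figure D4:**
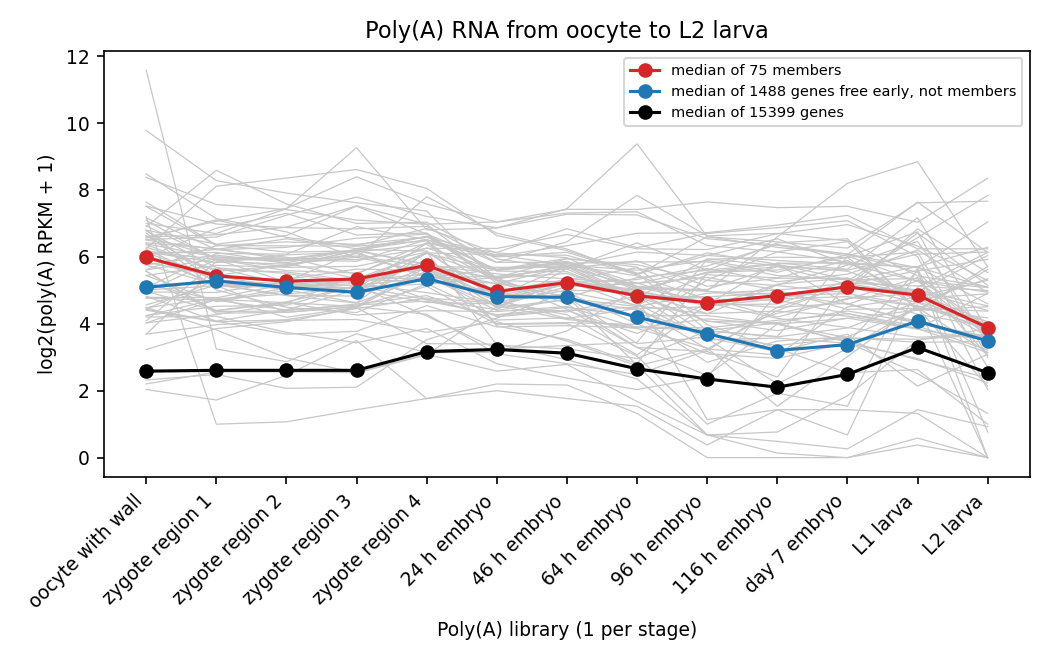
Log2(RPKM + 1) in the 13 poly(A) libraries from oocyte to L2 larva, with 1 grey line per member and dots for the medians of 3 gene sets. The members' median RPKM was 62.2 in the oocyte library, 27.7 at 116 h and 13.8 in L2 larvae.

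Between stages, changes of 4-fold were counted on RPKM + 1 where at least 1 of the libraries compared reached RPKM 10. From oocyte to zygote region 4, 1 of 72 members was 4-fold higher and 3 were lower, against 10.1% and 3.31% of all such genes. From 24 h to 116 h, 4 of 71 were higher and 9 lower, against 4.65% and 18% of all genes. From 116 h to day 7, 2 of 64 were higher and 0 lower, against 4.61% and 0.552%. From day 7 to L1, 3 of 68 were higher and 2 lower, against 15.3% and 0.617%. From L1 to L2, 0 of 66 were higher and 11 lower, against 5.74% and 18.5%. Downward counts were near the background from 24 h to 116 h and from L1 to L2, and the upward count from day 7 to L1 was below it. These steps have 1 library per stage and no test.

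ASU_07333 had the largest difference of the first step, with RPKM 3065.1 in the oocyte library, 8.5 in zygote region 1 and 7.8 in region 4, a value that depends on the inference made for the oocyte column. It was at 7.9, 12.8, 31.9, 31.6 and 51.4 from 24 h to 116 h, 35.3 on day 7 and 47.0 in L1, and was listed at 0 in L2, the largest difference of the step from L1 to L2. In the gradients its free RPKM was 117.2, 78.9, 61.2, 73.4 and 15.3 and its heavy RPKM 33.6, 13, 40.9, 247.2 and 39.4. On day 0 its fraction levels were thus well above its poly(A) level of 7.8 in zygotes of the same region. ASU_08947 was the member that was 4-fold higher, with 11.9 in the oocyte library and 67.9 in region 4. From day 7 to L1, ASU_11533 went from RPKM 0.6 to 33.2 and ASU_04199 from 92.2 to 20.1.

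A straight line over age was fitted with limma to the 7 poly(A) libraries from 0 h to day 7, none of which the rule used. Of 75 members, 4 rose and 22 fell at an adjusted p under 0.05, and the fit made no call for the others. Over 12263 genes tested 9.74% rose and 25.7% fell. Over the 3684 of them with free RPKM 10 on days 0 and 1 the shares were 5.51% and 43.6%. The members' rising share, 5.33%, was below that of all genes and near that of the 3684. Their falling share, 29.3%, was near that of all genes and below that of the 3684. The median slope was -0.11 log2 units per day for the members and -0.08 for all genes, with a median SE of 0.08 for the members. The 1488 comparison genes had 80 rising and 819 falling (55.1%). The 875 of them present late and tested had 80 rising and 295 falling (33.7%). The 65 members present late by the same measure had 4 rising and 16 falling (24.6%). The split depended on the scaling and on single libraries. Quantile normalization gave 9 rising and 17 falling members, and 2266 and 2147 of all genes. Median-ratio scaling gave 6 and 16 members, and 1629 and 2685 of all genes, against 1195 and 3152 as deposited. Leaving out the zygote region 4 library gave 10 rising and 14 falling members, or 13.3% and 18.7% against 7.47% and 24.1% of all genes, so that the rising share then lay above the background and the falling share below it. Leaving out the 24 h, 116 h or day 7 library gave 2 rising members (2.67%), against 6.36%, 5.52% and 10.4% of all genes.

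ASU_08406 rose by 0.43 ± 0.12 log2 units per day (SE, limma adjusted p = 0.0236), and ASU_07333 by 0.37 ± 0.09 (adjusted p = 0.0133). The poly(A) level of ASU_08406 was RPKM 17.8 in region 4 zygotes, then 8.5, 9.2 and 9.9 (24, 46 and 64 h), and 59.9, 62.5 and 62.1 (96 h, 116 h and day 7). Its level was thus lower from 0 h to 64 h than from 96 h to day 7, and its heavy-fraction level was highest on days 5 and 7. Outside these ages its poly(A) level was 34.3 in zygote region 3, 20.9 in L1 and 17.1 in L2 larvae. From 24 h to 116 h it had the largest increase among the members. Its call was lost without the 24 h, 116 h or day 7 library, with adjusted p from 0.0104 to 0.0673 over 14 alternatives.

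ASU_11533 had a slope of -1.03 ± 0.14 (limma adjusted p = 0.00251), the largest fall, and ASU_09706 one of -0.76 ± 0.18 (adjusted p = 0.0114). ASU_11533 was at RPKM 130.5, 60.4, 48.7 and 26.0 from 0 h to 64 h and at 1.2, 1.7 and 0.6 at 96 h, 116 h and day 7. Its heavy values on days 5 and 7 were 11.5 and 2.4, against 25.5 and 18.5 on days 0 and 1, so its ratio changed while both fractions were lower. ASU_09706 was at 69.5, 28.5, 27.1 and 5.8 and then at 0.6, 0.7 and 2.6, and its heavy values on days 5 and 7 were 3.1 and 4.9. In both members the ratio moved towards the heavy fraction while the heavy level itself was lower than on day 0. The call of ASU_09706 was lost without the zygote region 4 library, with adjusted p from 0.000557 to 0.0532 over 14 alternatives.

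**Figure D5:**
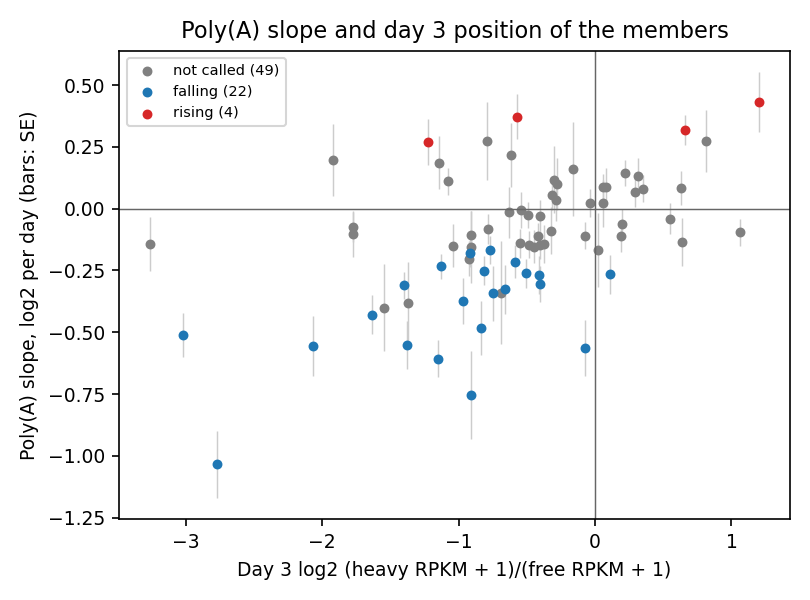
Poly(A) slope (log2 units per day, bars for the SE) against the day 3 log2 ratio of heavy to free fraction for the 75 members, coloured by the limma call. The 4 rising and 22 falling members are marked, and ASU_08406 is the rising one at a day 3 ratio of 1.20.

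Across the 75 members, which share their libraries, the poly(A) slope had a Spearman rho of 0.48 with the day 3 ratio and of -0.05 with the size of the shift. The range of the shift was limited by the rule. Members with a higher poly(A) slope tended to have a higher day 3 ratio.

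For 3 members the gradients and the poly(A) libraries parted. ASU_06164, ASU_08202 and ASU_12938, chosen after their values were seen, were under poly(A) RPKM 1 at 116 h and on day 7 and at heavy RPKM 10 or more on days 5 and 7. ASU_06164 was listed at 0 in poly(A) RNA at 96 h, 116 h and day 7 and had day 7 values of 32.7 (free), 35.8 (middle) and 94.5 (heavy). ASU_08202 was at 0.6, 0.4 and 0.2 in those poly(A) libraries and at 19.5, 17.3 and 63.1 in the day 7 fractions. ASU_12938 was at 0.6, 0.1 and 0 and at 73.2, 71.8 and 152.5. All 3 fell in the slope fit, with slopes of -0.37 ± 0.09, -0.55 ± 0.10 and -0.51 ± 0.09 (SE). The fit includes the 116 h and day 7 libraries by which they were chosen, so their fall is a description only. ASU_06164 was at RPKM 3.6 or less in all fitted libraries. Of all genes with heavy RPKM 10 or more, 2.79% were under poly(A) RPKM 1 on day 7 and 1.02% at 116 h (day 5 gradient), against 3 of 70 and 3 of 66 members. For these RNAs the fraction levels were higher on day 7 than on day 5 in the free, the middle and the heavy library, while poly(A) RNA stayed near 0.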

How the data were processed

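The authors deposited RPKM values with 1 decimal for 15399 genes in 28 columns, which hold 18 of the 28 samples; the other 10 samples are not analysed here. The submitters' processing notes name Bowtie 0.12.7. For the build, annotation and counting tool a name is not given in the sources used here. Poly(A) RNA was randomly primed, per the labels' protocols. Column names gave the samples, except for the oocyte and 64 h columns, which were inferred. Members were found with the pseudocount 1, 2-fold limits and RPKM minimum of 10 stated in the report. The members and the comparisons were chosen with earlier results of these data known. The slope over age was fitted in limma 3.58.1 (R 4.3.3) to log2(RPKM + 1) values. The fit had an intensity trend, genes at RPKM 1 in at least 2 of 7 libraries, 5 residual degrees of freedom and Benjamini-Hochberg adjustment over all genes tested. Its residual spread is the departure from a line, not replicate error. A log2(RPKM + 1) difference understates the change of low genes. Tested on simulated data for 11783 genes in 7 libraries with each gene's own residual spread, the fit called 5 of 50 genes with a slope of 0.25 log2 units per day, 47 of 99 with 0.5, 33 of 50 with 1 and 3 of 11584 with none. Named genes were, for each comparison, the members with the largest values in each direction: 2 for the shift, 2 each way for day 3 and the slope, 1 each way for a step. Gene lists were not used, since the identifiers have no names.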

Additional observations from a re-analysis of the deposited data

How the results depend on the processing

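The number of members followed the settings of the rule. It was 34 with a pseudocount of 5, 309 with a 1.5-fold and 5 with a 3-fold limit, 308 with days 0 and 7 only and 204 with days 1 and 5 only. Quantile normalization left 8 genes and median-ratio scaling 4, and there were 8 with each day's ratio taken relative to the median of all genes, an alternative chosen after seeing the data. A pseudocount of 0.1, free RPKM minimums of 5 and 20 and no minimum gave 99, 91, 59 and 105 genes. On day 3 the members heavy and free were 0 and 11 with a pseudocount of 5, 6 and 25 with a 1.5-fold limit, 0 and 22 with quantile normalization, and 0 and 42 with median-ratio scaling. In the slope fit 9 members rose after quantile normalization. Leaving out 1 library at a time gave 2 to 10 rising and 14 to 23 falling members. At 2-fold in place of 4-fold, the members apart were 22 from oocyte to zygote region 4, 28 from 24 h to 116 h, 5 from 116 h to day 7, 20 between day 7 and L1 and 32 between the larval stages. With a pseudocount of 5 they were 7 from 24 h to 116 h and 2 from day 7 to L1. Apart from the arithmetic of stricter or looser limits and fewer libraries, the cause of these changes was not tested. The other totals stayed within 1.5 times. By direction, the 1 member higher from oocyte to zygote region 4 became 0 under both scalings, the 9 lower from 24 h to 116 h became 6 with quantile normalization (4 higher and 9 lower became 2 and 5 with the pseudocount of 5), and the 2 lower from day 7 to L1 became 1 with median-ratio scaling and 0 with the pseudocount of 5. No paired analysis was possible because each group has 1 sample. Depth is unknown, so no counting error is given.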

Other observations

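Some members had courses that no comparison above describes, and they were chosen after their values were seen. ASU_01152 had poly(A) peaks in 2 separate libraries, with RPKM 172.8 in zygote region 2, 613.9 in region 3 and 110.9 in region 4, then 172.6 at 46 h, 665.2 at 64 h and 96.6 at 96 h. Its free and heavy fractions were at 150.3 and 62.7 on day 0 and at 69.1 and 70.3 on day 3. ASU_08215 was at RPKM 877.8 in oocytes, at 164.7 in region 4 zygotes, at 38.3 and 4.3 in embryos of 24 and 116 h, and at 37.8 on day 7, 94.3 in L1 and 227.3 in L2 larvae. Its heavy fraction was at 133.3, 35.2, 12.3, 18.0 and 115.6 on days 0, 1, 3, 5 and 7, so that its day 7 level was below that of day 0.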
